A study of Mus musculus with 24 samples.

Results

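The 30 genes described here, of peroxisome biogenesis and peroxisomal oxidation, were followed in 2 kinds of fat, brown (BAT) and white (WAT) adipose tissue, of mice on 3 diets. They were taken by gene symbol from an Illumina mouse expression array, 1 probe for each gene, the one with the highest mean over the 24 arrays. A probe was present for 30 of the 30 genes, out of 19053 genes named on the array. The mice were male C57Bl/6J animals given high-fat food with added EPA and DHA, the marine fatty acids eicosapentaenoic and docosahexaenoic acid (EPA/DHA), high-fat food with corn oil, or a low-fat diet, which the labels also call the control diet, with 4 arrays for each tissue and diet. No transgene or drug is given in the labels, nor the age of the mice. The design text speaks of 4 mice chosen for each diet as typical in weight and plasma lipids, and whether BAT and WAT arrays share mice is not stated. The labels name no WAT depot, and the RNA protocol speaks of skeletal muscle although the tissue labels are adipose.

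Peroxisomes are single-membrane organelles that shorten very-long-chain, branched and polyunsaturated fatty acids, which mitochondria handle poorly, and that destroy the hydrogen peroxide this produces. Peroxins (the Pex genes) insert the membrane proteins, import the matrix enzymes and divide the organelle. Docosahexaenoic acid is itself completed and partly broken down in peroxisomes. Many genes of peroxisomal oxidation are targets of the fatty acid receptor PPAR alpha in rodents, and brown fat is rich in peroxisomes.

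All values are deposited log2 expression, between 6.95 and 14.79, with a floor near 7. Differences are in log2 units with their standard error from limma, and a gene passed when its Benjamini-Hochberg adjusted p, over all probes kept in a tissue, was under 0.05. In each tissue 27 of the 30 genes lay above the filter on dim probes, so that counts below are over those 27. The 3 others were close to the floor in all 24 arrays: Crot, which makes carnitine esters of shortened chains (7.03 to 7.15), Phyh, the first enzyme of alpha oxidation (7.01 to 7.15), and Amacr, a racemase for branched chains (7.02 to 7.16). BAT low-fat replicate 2 stood apart from the other arrays. Its mean correlation with the arrays of its tissue was 0.969, against 0.983 to 0.992 for the other arrays. For the 30 genes, the value without it is given where leaving it out ended a call. It is also given where a named difference with an unadjusted p under 0.05 moved by over 1.5 times. For differences with a larger p no such value is given, and some of them rest on that array. Marker genes followed the tissue labels, with Ucp1, the uncoupling protein of brown fat, between 13.55 and 14.41 in BAT. BAT also held muscle transcripts, Ckm ranging from 7.54 to 12.09 there. In WAT Ucp1 ran from 7.08 to 10.63, and was highest in EPA/DHA replicate 2 (10.63) and corn oil replicate 4 (9.38).

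In WAT, the corn oil diet went with lower expression of Pex19, Pex3 and Scp2 than the low-fat diet, and Pex19 and Scp2 were higher on EPA/DHA than on corn oil. In BAT no gene passed for any pair of diets, while 22 of 27 genes had a lower and 5 a higher mean on corn oil than on low fat (48.2% of all genes were higher), among them Pex14 and Ehhadh. Between tissues, 18 of 27 genes were lower and 2 were higher in WAT than in BAT on the low-fat diet, where 20.4% of all genes were lower and 23.3% higher. In these bulk samples, fewer cells of a type and less RNA per cell cannot be told apart. The corn oil and EPA/DHA diets were both high in fat, so against low fat the amount and the kind of fat cannot be told apart.

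The promoters of 4 genes on which these results turn are given here, as the 250 bases before the start of transcription in RefSeq (GRCm38.p6), each read 5′ to 3′ on the gene's own, minus strand. Scp2 (chr4:108118548-108118797) and Pex3 (chr10:13553143-13553392) passed in WAT, Pex14 (chr4:149099844-149100093) differed in its diet effect between the tissues, and Ehhadh (chr16:21787835-21788084) had the lowest difference both between tissues and in BAT on corn oil. Capitals mark AGGTCA, the half-site of nuclear receptors such as PPAR alpha, CCAAT, and the GC box GGGCGG, each on either strand.
Scp2: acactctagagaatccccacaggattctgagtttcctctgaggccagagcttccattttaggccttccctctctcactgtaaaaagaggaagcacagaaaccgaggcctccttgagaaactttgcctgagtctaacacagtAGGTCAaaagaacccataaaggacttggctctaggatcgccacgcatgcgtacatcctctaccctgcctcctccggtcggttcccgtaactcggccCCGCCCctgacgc
Pex3: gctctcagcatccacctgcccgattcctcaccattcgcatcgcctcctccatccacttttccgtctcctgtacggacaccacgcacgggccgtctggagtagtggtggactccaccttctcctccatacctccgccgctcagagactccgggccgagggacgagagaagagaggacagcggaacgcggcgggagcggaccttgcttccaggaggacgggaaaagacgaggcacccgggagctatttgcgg
Pex14: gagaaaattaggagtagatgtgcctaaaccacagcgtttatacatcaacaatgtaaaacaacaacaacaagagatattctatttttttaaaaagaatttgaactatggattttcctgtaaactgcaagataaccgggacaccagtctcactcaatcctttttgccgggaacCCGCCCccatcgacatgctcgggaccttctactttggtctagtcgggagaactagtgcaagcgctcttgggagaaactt
Ehhadh: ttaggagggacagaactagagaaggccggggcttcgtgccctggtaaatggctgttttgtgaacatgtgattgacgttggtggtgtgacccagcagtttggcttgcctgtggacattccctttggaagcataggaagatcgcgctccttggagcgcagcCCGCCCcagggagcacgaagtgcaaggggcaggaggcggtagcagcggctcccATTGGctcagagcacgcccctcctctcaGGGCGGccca
The Scp2 window held 1 half-site, 109 bases before the start, and 1 GC box 13 bases before it. The Ehhadh window held a CCAAT box 38 bases before the start and GC boxes at 10 and 91 bases, and that of Pex14 a GC box at 79 bases. The Pex3 window held none of these letters. Of the 30 genes, 25 had a promoter in the table, with 29 windows between them. A full PPAR element, taken as AGGTCA repeated directly with 1 base between, stood in 0 of the 29, against 0.0335% of all 32851 windows. The half-site stood in 3 of the 29 (Scp2, Cat and Pex11g) against 14% of all windows. CCAAT stood in 12 of 29 against 33.8%, and GGGCGG in 19 of 29 against 32.7%. The half-site is part of the PPAR element, so those searches overlap. CACGTG, the E-box, stood in 0 of 29 against 6.02%, and TCAAGGTCA, a site of oestrogen-related receptors that holds the half-site, in 0 of 29 against 0.387%. The PPAR element and TCAAGGTCA are so rare over all windows that 0 of 29 tells nothing about these genes. These are matches of letters, not measured binding.

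On corn oil against the low-fat diet in WAT, 3 of 27 genes fell, 0 rose and 24 did not pass, where 3.87% of all 13349 genes tested passed and 1.82% did so with a lower value. All 3 belong either to the assembly of the peroxisomal membrane or to the final, thiolytic step of beta oxidation. Over the 27 genes 18 differences were below 0 and 9 above, where 48.5% of all genes were above, and their median was -0.026, against -0.002 over all genes. Without corn oil replicate 2, 13 were below 0 and 14 above, with a median of 0.009, so that balance rested on 1 array.

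Pex19, the cytosolic chaperone that carries new membrane proteins to the peroxisome, measured 11.38, 11.28, 11.22 and 11.32 on corn oil, against 11.61, 11.60, 11.62 and 11.68 on low fat. Every corn oil array lay below every low-fat array, and the low-fat arrays lay within 0.08 of each other. The mean fell to 11.30 ± 0.07 on corn oil, against 11.63 ± 0.04 on low fat (SD, n = 4 each), a difference of -0.33 ± 0.05 with a limma adjusted p of 0.00816. A second, dimmer Pex19 probe had a difference of -0.12 ± 0.10 that did not pass (adjusted p = 0.61).

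Pex3 is the anchor in the peroxisomal membrane on which Pex19 docks. Its 4 arrays gave 9.13, 9.28, 9.35 and 9.41 on corn oil, against 9.70, 9.52, 9.58 and 9.55 on low fat. Here too the groups did not overlap, and the difference was -0.30 ± 0.07 (limma adjusted p = 0.0429). A second Pex3 probe gave -0.35 ± 0.07 (adjusted p = 0.026). The call for the brighter probe was lost in each of the 8 fits that left out 1 array of these groups, with adjusted p between 0.0514 and 0.107. Pex16, which brings Pex3 to the membrane, had a difference of 0.10 ± 0.12 that did not pass (adjusted p = 0.757).

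Scp2 encodes both the thiolase SCPx, which cleaves branched and bile acid chains in the last step of beta oxidation, and the lipid carrier SCP2. It measured 13.03, 12.99, 12.99 and 12.87 on corn oil, against 13.69, 13.58, 13.58 and 13.43 on low fat. The highest corn oil array was below the lowest low-fat array by more than either group spread within itself. The difference was -0.60 ± 0.10 with a limma adjusted p of 0.0122, the largest in size of the 27 genes. Of the other named Scp2 probes, the next brightest gave -0.33 ± 0.08 (adjusted p = 0.0639) and the next -0.14 ± 0.20 (adjusted p = 0.825), and the mean over all named probes gave -0.27 (adjusted p = 0.0907). Which of the Scp2 transcripts each probe reads was not given in the sources used here.

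Other genes were lower on corn oil without passing. Catalase (Cat), which breaks down hydrogen peroxide, measured 10.60, 10.35, 10.53 and 10.52 on corn oil, against 10.64, 10.64, 10.75 and 10.76 on low fat. The groups did not overlap, but the difference of -0.20 ± 0.07 had an adjusted p of 0.183. Abcd2, a transporter of very-long-chain and polyunsaturated acyl-CoA, differed by -0.32 ± 0.15 (adjusted p = 0.32), again with no overlap, and corn oil replicate 4 was low at 10.51 beside 11.06 to 11.10. In all, 5 genes had corn oil arrays wholly below the low-fat arrays (Pex19, Scp2, Pex3, Cat and Abcd2) and 0 wholly above, where 5.86% of all genes tested lay wholly below and 6.54% wholly above. Ech1, an isomerase of dienoyl-CoA in peroxisomes and mitochondria, differed by -0.30 ± 0.11 (adjusted p = 0.182). Acot8, a thioesterase that releases shortened acids, differed by 0.17 ± 0.07 the other way (adjusted p = 0.257).

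**Figure D1:**
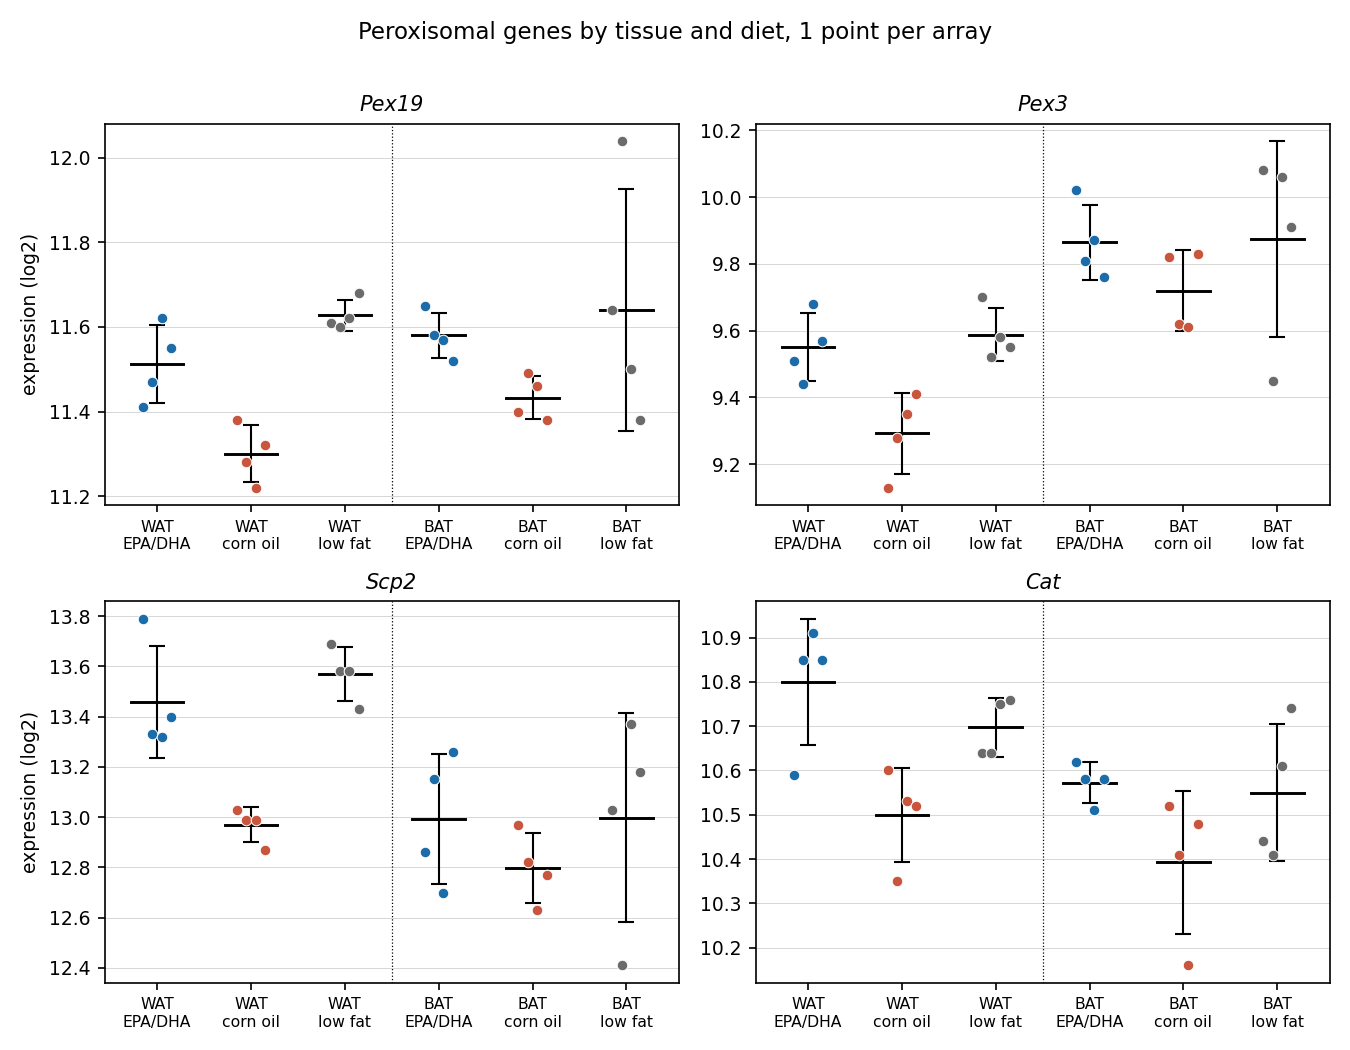
Log2 expression of Pex19, Pex3, Scp2 and Cat in each array (points) by tissue and diet, with the group mean and SD (bars, n = 4). In WAT the corn oil arrays of Pex19, Pex3 and Scp2 lie below all arrays of the EPA/DHA and low-fat diets, and Scp2 has 1 high EPA/DHA array at 13.79. The vertical axes do not start at 0.

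On EPA/DHA against corn oil in WAT, 2 of 27 genes rose, 0 fell and 25 did not pass, where 2.34% of all genes passed and 1.18% rose. This comparison shares its corn oil arrays with the one before, so that the 2 are not independent. Over the 27 genes 22 differences were above 0, where 51.1% of all genes were, and the median was 0.075, against 0.002 over all genes. Another 6 genes had an unadjusted p under 0.05, 8 in all, where 17.6% of all genes did.

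Scp2 measured 13.79, 13.33, 13.32 and 13.40 on EPA/DHA, against 13.03, 12.99, 12.99 and 12.87 on corn oil. The groups did not overlap, and replicate 1 stood above the other EPA/DHA arrays. The difference was 0.49 ± 0.10 (limma adjusted p = 0.0317), and 0.38 ± 0.06 without replicate 1 (adjusted p = 0.0182). Pex19 measured 11.41, 11.47, 11.62 and 11.55 on EPA/DHA, against 11.38, 11.28, 11.22 and 11.32 on corn oil. The lowest EPA/DHA array was 0.03 above the highest corn oil array, and the difference was 0.22 ± 0.05 (adjusted p = 0.0493). With the mean over all named probes neither gene passed, Scp2 differing by 0.25 (limma adjusted p = 0.128) and Pex19 by 0.16 (0.0905). Leaving out 1 array at a time, the Pex19 call was lost in 7 of 8 fits, the exception being the fit without EPA/DHA replicate 1 (adjusted p = 0.034), and the Scp2 call in 6 of 8 (adjusted p up to 0.0764). Without the 2 WAT arrays highest in Ucp1, a choice made after seeing the data, 0 of 27 genes passed, Scp2 having a difference of 0.50 (adjusted p = 0.0799) and Pex19 one of 0.24 (adjusted p = 0.108).

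Pex3 measured 9.51, 9.44, 9.68 and 9.57 on EPA/DHA, against 9.13, 9.28, 9.35 and 9.41 on corn oil, with no overlap. Its difference of 0.26 ± 0.07 did not pass (adjusted p = 0.0848). Cat came nearer, with a difference of 0.30 ± 0.07 (adjusted p = 0.0626). Its EPA/DHA arrays were 10.59, 10.85, 10.91 and 10.85, and the lowest of them lay inside the corn oil range of 10.35 to 10.60. Without that array, EPA/DHA replicate 1, the difference was 0.37 ± 0.06 and passed (adjusted p = 0.019). Pex11a, which elongates peroxisomes before they divide and is a known PPAR alpha target, measured 10.80, 10.30, 10.61 and 10.77 on EPA/DHA, against 10.10, 10.23, 9.99 and 10.32 on corn oil. Its brightest probe differed by 0.46 ± 0.14 and did not pass (adjusted p = 0.134). All 4 Pex11a probes were higher on EPA/DHA, by 0.28 to 0.46, and the dimmest of them passed, at 0.28 ± 0.05 (adjusted p = 0.0238). Pex6, the ATPase that pulls import receptors back out of the membrane, differed by 0.44 ± 0.16 with no overlap between the groups (adjusted p = 0.211), and Ech1 by 0.36 ± 0.11 (adjusted p = 0.126). Groups did not overlap for 4 genes, all higher on EPA/DHA (Scp2, Pex19, Pex3 and Pex6), where 5.29% of all genes lay wholly higher.

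Between EPA/DHA and low fat in WAT, 0 of 27 genes passed, where 0.03% of all genes did, and 1 had an unadjusted p under 0.05, where 9.06% of all genes did. That was Pex19, at -0.11 ± 0.05 (limma adjusted p = 0.6). Scp2 differed by -0.11 ± 0.10 with a 95% interval of -0.32 to 0.10, and Pex3 by -0.04 ± 0.07 with an interval of -0.19 to 0.11. The intervals bound a difference but do not show that the diets gave equal expression. Over the 27 genes the median half-width of the interval was 0.2.

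Cell type markers were summarised in each array by the mean log2 value of a list. The brown adipocyte score (10 of 11 markers with a probe) was 8.04 to 9.29 on EPA/DHA, 7.70 to 8.50 on corn oil and 7.79 to 8.14 on low fat in WAT. The macrophage score (10 of 12) was 8.66 to 9.08, 8.96 to 9.18 and 8.70 to 9.01 in the same order of diets. The endothelial score (8 of 8) was 9.24 to 9.38 on EPA/DHA and did not overlap that on corn oil, 9.44 to 9.66, while low fat was at 9.30 to 9.56. The pancreas score (5 of 8) was 7.39 to 7.47 on EPA/DHA, 7.56 to 7.68 on corn oil and 7.38 to 7.52 on low fat, and so set corn oil apart from both other diets. Only the elastase Cela1 carried this, at 8.65 to 8.93 on EPA/DHA, 9.43 to 9.92 on corn oil and 8.41 to 8.90 on low fat, while the other 4 markers with a probe were near the floor, at or under 7.20. Some liver markers were high in WAT, Ttr reaching 13.82, while Alb was at the floor, at or under 7.13 in every array. With the liver score as a covariate, Scp2 and Pex19 passed on corn oil against low fat and Scp2 alone on EPA/DHA against corn oil. The part of the other scores in these results was not tested.

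In BAT, on corn oil against low fat, 0 of 27 genes passed, and 0% of all 13400 genes tested. Unadjusted p was under 0.05 for 11 of the 27, where it was for 9.1% of all genes. The mean was lower on corn oil for 22 of the 27 and higher for 5, where 48.2% of all genes were higher, with a median difference of -0.18, against -0.003 over all genes. Corn oil arrays lay wholly below the low-fat arrays for 6 genes (Pex14, Ehhadh, Decr2, Pex16, Pex6 and Pex5), where 2.89% of all genes did.

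Pex14, the membrane protein on which cargo-loaded import receptors dock, measured 9.67, 9.93, 9.74 and 9.92 on corn oil, against 10.30, 10.84, 10.39 and 10.37 on low fat. The gap between the groups was 0.37, and low-fat replicate 2 was the highest array. The difference was -0.66 ± 0.11 (limma adjusted p = 0.174), and -0.54 ± 0.07 without that array (adjusted p = 0.0802). Ehhadh, the bifunctional enzyme of the middle steps of beta oxidation and a known PPAR alpha target, measured 8.02, 8.60, 8.0 and 8.81 on corn oil, against 9.0, 9.41, 9.09 and 9.39 on low fat. Corn oil replicates 2 and 4 lay above replicates 1 and 3, and all of them lay below the low-fat arrays. The difference of -0.87 ± 0.19 did not pass (adjusted p = 0.24).

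Pex16 measured 9.54, 9.69, 9.42 and 9.31 on corn oil, against 9.91, 10.67, 10.15 and 9.78 on low fat. Its difference of -0.64 ± 0.17 rested in part on low-fat replicate 2, and was -0.45 ± 0.11 without it (adjusted p = 0.34 with and 0.28 without). Decr2, the peroxisomal reductase that removes double bonds from polyunsaturated chains, measured 7.66, 7.57, 7.63 and 7.63 on corn oil, against 7.76, 7.99, 7.93 and 7.81 on low fat. These values lie near the floor, and the difference was -0.25 ± 0.06 (adjusted p = 0.299). Pex6 differed by -0.36 ± 0.11, Pex5, the receptor for most imported enzymes, by -0.22 ± 0.10, and Acaa1b, a thiolase, by -0.60 ± 0.26. Pex11g differed by -0.34 ± 0.11 (limma adjusted p = 0.437), and by -0.23 ± 0.08 without low-fat replicate 2. Acaa1b and its close copy Acaa1a (-0.23 ± 0.10) are so alike in sequence that their probes may not separate them, and without low-fat replicate 2 the Acaa1a difference was -0.12. Another 2 genes went the other way with an unadjusted p under 0.05, Abcd2 (0.65 ± 0.23, adjusted p = 0.475) and Hsd17b4 (0.25 ± 0.10, adjusted p = 0.561), the D-bifunctional enzyme needed for very-long and branched chains. Without low-fat replicate 2 the Abcd2 difference was 0.40 and that of Hsd17b4 0.15.

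When all 24 arrays were fitted together, which adds the spread of WAT arrays to the estimate of error, 3 of these genes passed in BAT, Pex14 (adjusted p = 0.00624), Decr2 (0.0221) and Ehhadh (0.0282). The share of all genes that passed in that fit is not given here, so the count cannot be read as an excess. Without low-fat replicate 2, 0 of 27 passed in the BAT fit, 22 of 27 stayed below 0 and the median was -0.121. The brown adipocyte score was lower on corn oil (10.41 to 10.86) than on low fat (10.92 to 11.36) and the white adipocyte score (10 of 10 markers) higher (8.87 to 9.12 against 8.50 to 8.79), with no overlap in either. The skeletal muscle score (11 of 12) was 9.79 to 11.83 on corn oil, against 8.67 to 10.68 on low fat. With that score as a covariate 21 of 27 genes were below 0, and the part of the adipocyte scores was not tested.

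**Figure D2:**
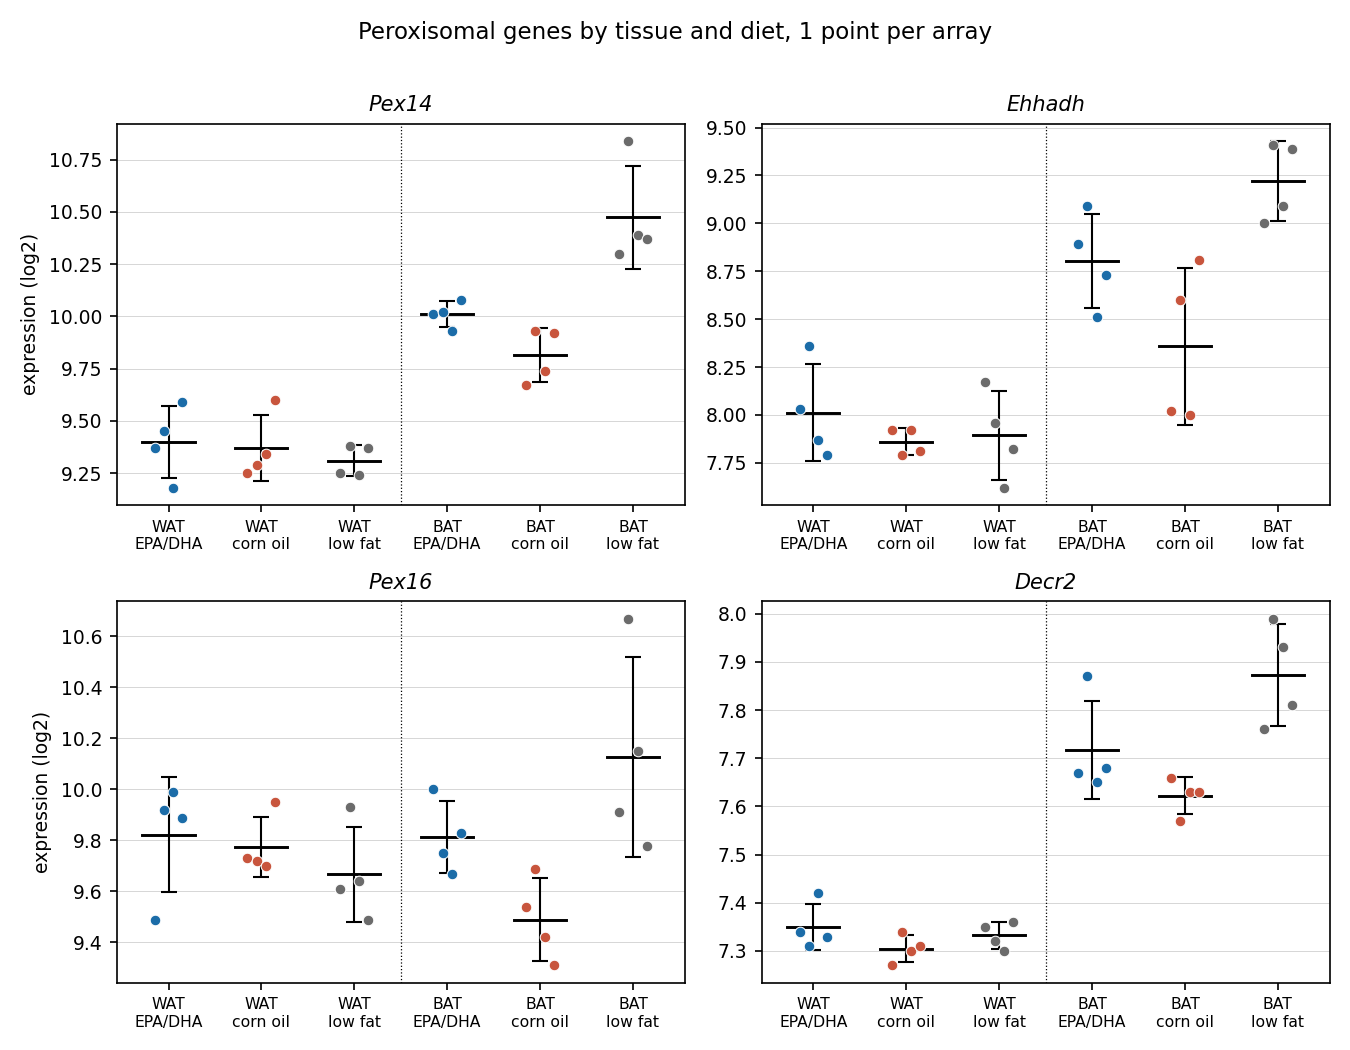
Log2 expression of Pex14, Ehhadh, Pex16 and Decr2 in each array (points) by tissue and diet, with the group mean and SD (bars, n = 4). In BAT the corn oil arrays lie below the low-fat arrays for each of the 4 genes, the EPA/DHA means lie between those, and in WAT the diets overlap. The vertical axes do not start at 0.

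On EPA/DHA against corn oil in BAT, 0 of 27 genes passed, 0% of all genes did, and 2 of the 27 had an unadjusted p under 0.05, where 4.99% of all genes did. These were Pex6, at 11.33, 11.53, 11.47 and 11.41 on EPA/DHA, against 11.14, 11.20, 11.02 and 10.69 on corn oil, and Ehhadh, at 8.89, 9.09, 8.51 and 8.73 on EPA/DHA, against 8.02, 8.60, 8.0 and 8.81 on corn oil. Pex6 did not overlap and differed by 0.42 ± 0.11 (limma adjusted p = 0.907). Ehhadh overlapped and differed by 0.45 ± 0.19 (adjusted p = 0.999). On EPA/DHA against low fat in BAT, 0 of 27 passed, where 0.00746% of all genes did, and 4 had an unadjusted p under 0.05, all lower on EPA/DHA, where 4.77% of all genes did. Pex14 had the largest of these differences, -0.46 ± 0.11 (adjusted p = 0.657), with arrays at 10.01, 10.02, 9.93 and 10.08 on EPA/DHA, all below the low-fat arrays. Hacl1, a lyase of alpha oxidation, differed by -0.30 ± 0.09, Pex5 by -0.27 ± 0.10 and Decr2 by -0.16 ± 0.06. Without low-fat replicate 2 the Pex14 difference was -0.34 ± 0.07 (adjusted p = 0.288).

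**Figure D3:**
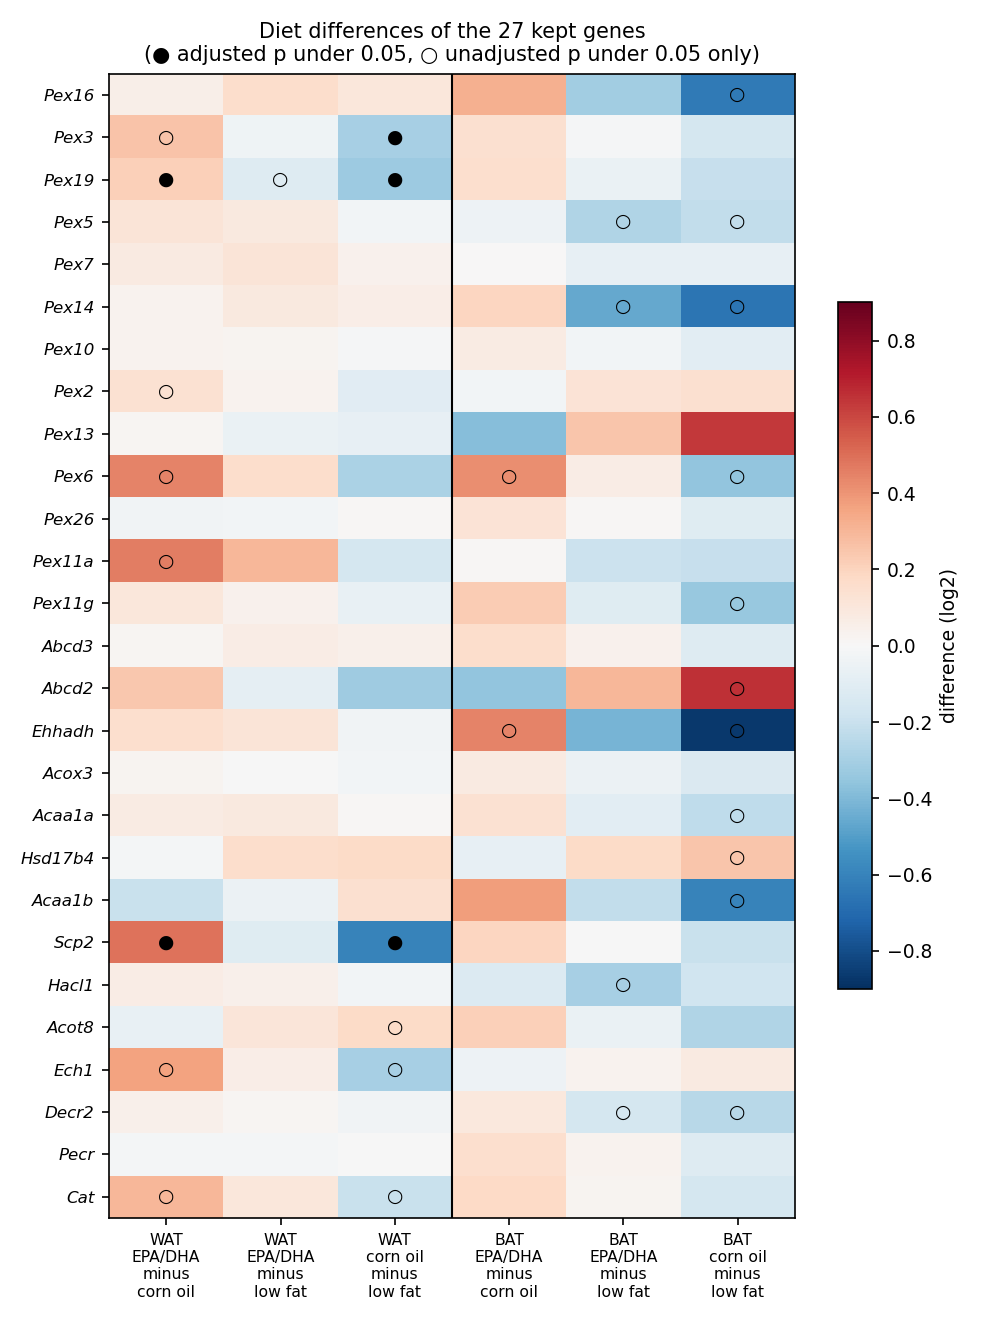
Log2 difference of each of the 27 genes above the filter (rows, by function) for 3 pairs of diets in WAT and in BAT (columns), blue for lower and red for higher in the diet named first. Filled circles mark an adjusted p under 0.05, which 3 genes reach on corn oil against low fat and 2 on EPA/DHA against corn oil, both in WAT, and open circles an unadjusted p under 0.05 only.

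Whether the difference between the corn oil and low-fat diets was unlike in WAT and BAT was tested as an interaction, with all 24 arrays in 1 fit. Of the 27 genes 1 passed, Pex14, where 0.652% of all 14262 genes tested did. Its corn oil minus low-fat difference was 0.06 ± 0.09 in WAT and -0.66 ± 0.11 in BAT, and the difference between those was 0.71 ± 0.15 (limma adjusted p = 0.033). In WAT the Pex14 arrays were 9.25, 9.29, 9.34 and 9.60 on corn oil, against 9.25, 9.38, 9.24 and 9.37 on low fat, and overlapped. The call held without BAT low-fat replicate 2 (0.59 ± 0.12, adjusted p = 0.0358). It was lost in 7 of the 16 fits that left out 1 array, the highest adjusted p being 0.0773 without WAT corn oil replicate 4. It was also lost without the 2 WAT arrays highest in Ucp1 (0.64 ± 0.15, adjusted p = 0.0822).

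The interaction of Ehhadh was 0.83 ± 0.24 (limma adjusted p = 0.147), that of Pex16 0.74 ± 0.21 (0.142), that of Abcd2 -0.98 ± 0.29 (0.15) and that of Decr2 0.22 ± 0.07 (0.167), none of which passed. Scp2, which passed in WAT and not in BAT, had an interaction of -0.40 ± 0.22 (adjusted p = 0.531). Pex19 had one of -0.12 ± 0.13 (0.769) and Pex3 one of -0.14 ± 0.15 (0.788). A difference between the tissues was thus not shown for Scp2, Pex19 or Pex3. BAT low-fat replicate 2 was low for Scp2 (12.41, the others 13.03 to 13.37) and Pex3 (9.45, the others 9.91 to 10.08). That array was high for Pex19 (12.04, the others 11.38 to 11.64). The interactions of Scp2, Pex19 and Pex3 lean on it and are not given without it. For EPA/DHA against corn oil 0 of 27 interactions passed, where 0.252% of all genes did, and 2 had an unadjusted p under 0.05 (8.45% of all genes), Ech1 (0.41 ± 0.15) and Pex11a (0.45 ± 0.20). For EPA/DHA against low fat 0 of 27 passed, where 0.00701% of all genes did, and 7 had an unadjusted p under 0.05 (6.44% of all genes), led by Pex14 (0.55 ± 0.15) and Hacl1 (0.35 ± 0.10).

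On the low-fat diet, expression in WAT was set against that in BAT. Of the 27 genes 18 were lower in WAT, 2 were higher and 7 did not pass, where 43.7% of all 14262 genes passed, 20.4% lower and 23.3% higher. The median difference was -0.43, against -0.006 over all genes. Groups did not overlap for 13 genes lower in WAT and 2 higher, where 18.8% of all genes were wholly lower and 21.8% wholly higher. Without BAT low-fat replicate 2, 17 of 27 passed, and Pex11g (-0.20, adjusted p = 0.06), Pex16 (-0.28, 0.0978) and Acaa1a (-0.20, 0.138) no longer did.

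The acyl-CoA transporters moved in opposite directions. Abcd2 measured 11.20, 11.16, 11.24 and 11.44 in WAT, against 8.79, 7.87, 8.71 and 9.11 in BAT, so that the nearest arrays of the 2 tissues lay 2.05 apart. The difference was 2.64 ± 0.20 (limma adjusted p = 1.5e-09), and 2.39 ± 0.16 without BAT replicate 2, which was the lowest. A second Abcd2 probe gave 1.87 ± 0.19. Abcd3, which carries long, branched and dicarboxylic chains and is abundant in peroxisomal membranes, measured 10.77, 10.52, 10.37 and 10.34 in WAT, against 11.78, 10.95, 12 and 11.94 in BAT. Its difference was -1.17 ± 0.16 (adjusted p = 4.1e-06), and -1.41 ± 0.09 without BAT replicate 2, and all 4 Abcd3 probes were lower in WAT and passed.

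Among the peroxins that import matrix enzymes, both receptors fell in WAT relative to BAT. Pex5 differed by -0.79 ± 0.10 and Pex7, the receptor for the smaller set of enzymes with an N-terminal signal, by -0.67 ± 0.08. Pex14 measured 9.25, 9.38, 9.24 and 9.37 in WAT, against 10.30, 10.84, 10.39 and 10.37 in BAT, a difference of -1.16 ± 0.10 (limma adjusted p = 1.5e-08). The ubiquitin ligases that release the receptors were lower too, Pex2 by -0.47 ± 0.11 and Pex10 by -0.49 ± 0.14. BAT replicate 2 was high for Pex10 (8.72, the others 7.78 to 7.99), and without it the difference was -0.28 ± 0.08 (limma adjusted p = 0.00813). Pex13, the docking partner of Pex14, differed by 0.21 ± 0.23 and did not pass (adjusted p = 0.525). For Pex13, BAT replicate 2 was low at 7.25, beside 8.19 to 8.48 in the other BAT arrays and 8.17 to 8.48 in WAT. Its difference therefore rested on that array. Pex6 measured 10.49, 10.20, 9.98 and 10.57 in WAT, against 11.21, 11.58, 11.44 and 11.26 in BAT, a difference of -1.06 ± 0.14. Pex26, its membrane anchor, lay near the floor in both tissues and differed by -0.12 ± 0.07 (adjusted p = 0.155). BAT replicate 2 was the highest BAT array for Pex26, at 7.74 beside 7.31 to 7.48.

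Of the genes that build and divide the membrane, Pex16 (-0.46 ± 0.15), Pex3 (-0.29 ± 0.11), Pex11a (-0.38 ± 0.14) and Pex11g (-0.31 ± 0.09) passed as lower in WAT, with adjusted p from 0.013 to 0.037. The Pex3 call was lost in 6 and the Pex11a call in 5 of the 8 fits that left out 1 array, and the second Pex3 probe differed more, by -0.68 ± 0.10. Pex19 was at 11.61, 11.60, 11.62 and 11.68 in WAT, against 11.64, 12.04, 11.50 and 11.38 in BAT. The difference was -0.01 ± 0.09 with an interval of -0.20 to 0.18. BAT replicate 2 was the highest at 12.04, and the small size of this difference rested on it. The dimmer Pex19 probe was lower in WAT by -0.44 ± 0.13 (limma adjusted p = 0.00926), so the Pex19 probes disagreed.

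Of the beta-oxidation enzymes, Ehhadh had the lowest difference, with 8.17, 7.96, 7.62 and 7.82 in WAT, against 9.0, 9.41, 9.09 and 9.39 in BAT. The groups lay 0.83 apart at their nearest, and the difference was -1.33 ± 0.17 (limma adjusted p = 2.5e-06). Acox3, an acyl-CoA oxidase of branched chains that starts the cycle, differed by -0.43 ± 0.09 and Acaa1a by -0.31 ± 0.11, and both passed. Scp2 measured 13.69, 13.58, 13.58 and 13.43 in WAT, against 13.03, 12.41, 13.37 and 13.18 in BAT, a difference of 0.58 ± 0.16 (adjusted p = 0.00618). Without BAT replicate 2, the lowest, it was 0.38 ± 0.13 (adjusted p = 0.0241). Its probes disagreed, the next brightest giving 0.34 ± 0.15 (adjusted p = 0.0893) and the next -0.64 ± 0.20 (adjusted p = 0.017), and the mean over all named probes differed by 0.06 (adjusted p = 0.697). Hsd17b4 (0.23 ± 0.10, and 0.13 without BAT replicate 2) and Acaa1b (0.54 ± 0.29) did not pass.

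The remaining enzymes were lower in WAT where they passed. Acot8 measured 8.56, 8.66, 8.55 and 8.53 in WAT, against 9.40, 9.97, 9.38 and 9.31 in BAT, a difference of -0.94 ± 0.12 (limma adjusted p = 2.6e-06). Ech1 differed by -0.73 ± 0.11, Decr2 by -0.54 ± 0.05 and Hacl1 by -0.53 ± 0.07. Ech1 lay at 14.04 to 14.43 in BAT, close to the top of the scale, so its difference can be understated. Over the WAT arrays Decr2 (7.27 to 7.42) and Hacl1 (7.36 to 7.56) lay near the floor, where differences can be understated too. Pecr, a reductase of enoyl-CoA, differed by -0.12 ± 0.07 and Cat by 0.15 ± 0.08, and neither passed, while a dimmer Cat probe was lower in WAT by -0.22 ± 0.06 (adjusted p = 0.0058).

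**Figure D4:**
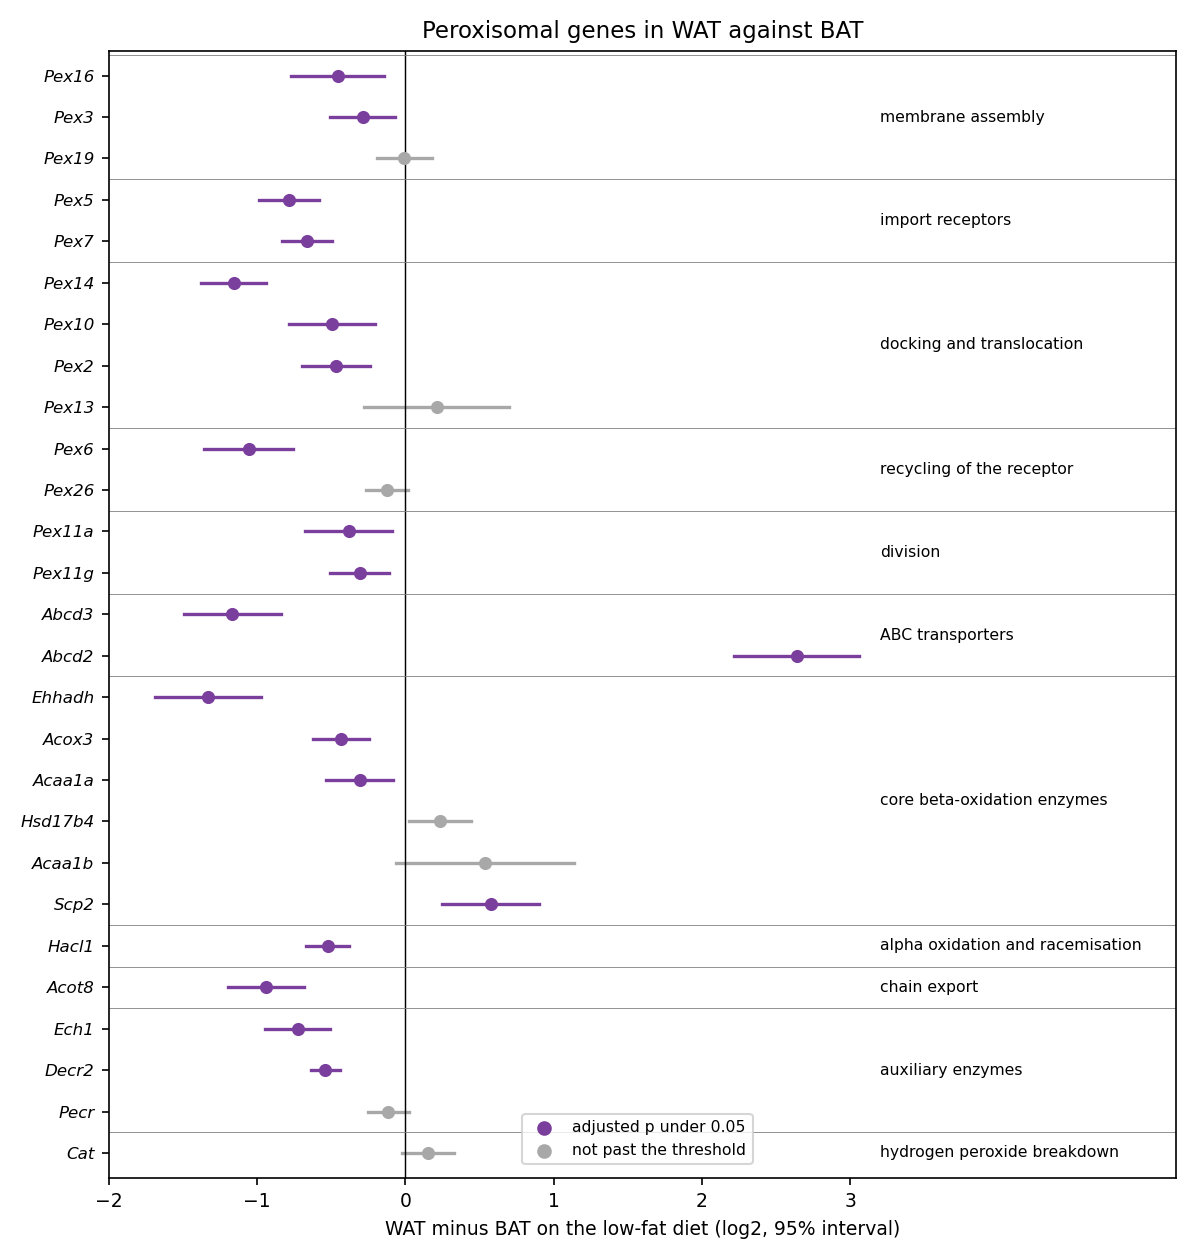
Difference WAT minus BAT on the low-fat diet for each of the 27 genes (points, log2) with its 95% interval (bars), grouped by function. Purple marks an adjusted p under 0.05. Abcd2 at 2.64 and Scp2 at 0.58 stand to the right of 0, and 18 genes that passed stand to the left, from -0.29 for Pex3 to -1.33 for Ehhadh.

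Related gene lists give the setting of these values. Of 53 other peroxisomal genes 45 had a probe and 40 were tested in WAT. On corn oil against low fat 2 of those 40 fell and 0 rose, where 1.82% of all genes fell. The 2 were the enoyl-CoA isomerase Eci3 (-0.89 ± 0.16, limma adjusted p = 0.0185) and the nucleotide hydrolase Nudt12 (-0.16 ± 0.04, 0.0478). On EPA/DHA against corn oil 4 of the 40 rose and 0 fell, where 1.18% of all genes rose. Eci3 was at 9.32 ± 0.32 on EPA/DHA, against 8.47 ± 0.13 on corn oil (SD, n = 4 each), a difference of 0.85 ± 0.16 (adjusted p = 0.0262). The others were Nudt12 (0.23 ± 0.04), the aspartate oxidase Ddo (0.51 ± 0.10) and the carnitine acetyltransferase Crat (0.42 ± 0.09), which also serves mitochondria.

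Of 18 genes of mitochondrial fatty acid oxidation, 3 rose on EPA/DHA against corn oil in WAT, where 1.18% of all genes did. They were the hydratase Echs1 (0.59 ± 0.07, limma adjusted p = 0.00454), the isomerase Eci1 (0.63 ± 0.12, 0.032) and the dehydrogenase Acads (0.46 ± 0.10, 0.0457). Differences were above 0 for 17 of the 18, where 51.1% of all genes were above 0. The median of that list was 0.34, beside 0.075 for the 27 peroxisomal genes and 0.054 for the 40 other peroxisomal genes. The mean of the mitochondrial list was 10.8 in EPA/DHA replicate 2, the array highest in Ucp1 and in the brown adipocyte score (9.29), against 10.32 to 10.37 in the other EPA/DHA arrays and at most 10.23 on corn oil. Without that array, a choice made after seeing the data, 1 of the 18 rose (Echs1), 17 stayed above 0 and the median was 0.206, and 2 of the 40 other peroxisomal genes rose (Eci3 and Nudt12). In WAT against BAT the mitochondrial list had 16 of 18 genes lower and a median of -1.53, beside -0.43 for the 27 genes. The 41 other peroxisomal genes tested had 16 lower, 5 higher and a median of -0.036. Of all genes 20.4% were lower and 23.3% higher in that comparison.

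A list of PPAR target genes not among the 30 had 14 tested in WAT (13 in BAT). It shares genes with the mitochondrial list, among them Slc25a20, Cpt1b and Acadm. In limma 0 passed for any of the 6 pairs of diets, with 1 to 5 at an unadjusted p under 0.05. There were 5 for EPA/DHA against corn oil in WAT (17.6% of all genes) and 5 for corn oil against low fat in BAT (9.1%). Against BAT, 9 were lower and 1 higher in WAT, where 20.4% of all genes were lower and 23.3% higher. On corn oil against low fat in BAT the smallest p was that of the thioesterase Acot1, at -1.44 ± 0.31 (limma adjusted p = 0.233), and its interaction between the tissues passed, at 1.65 ± 0.37 (adjusted p = 0.0483). Among 9 PPAR receptors, partners and coactivators tested in WAT (8 in BAT), 0 passed between diets, with 0 to 3 at an unadjusted p under 0.05. The 3 were on EPA/DHA against corn oil in WAT, where 17.6% of all genes had such a p. In WAT against BAT 5 of the 9 were lower and 2 higher, beside the same 20.4% and 23.3% of all genes. The lower ones included Ppara itself (-1.62 ± 0.13) and the coactivators Ppargc1a (-3.34 ± 0.46) and Ppargc1b (-3.02 ± 0.18).

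**Figure D5:**
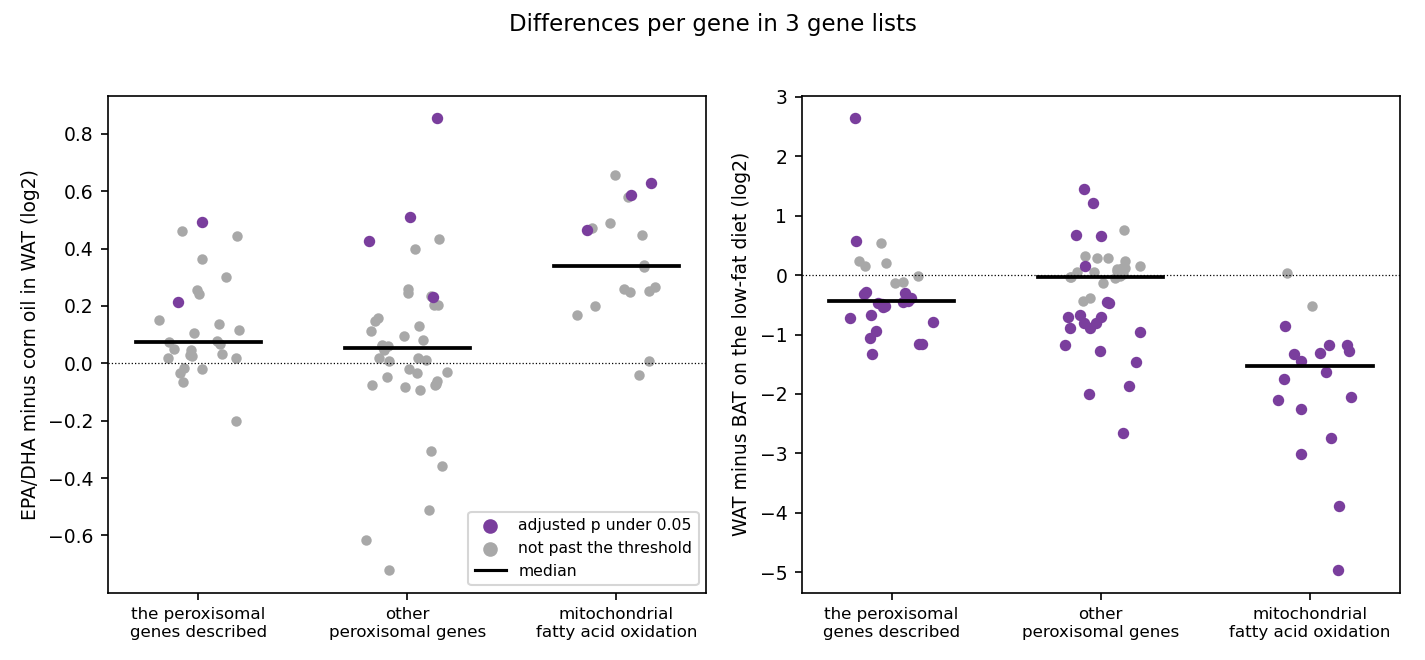
Log2 differences of single genes (points) in 3 lists, for EPA/DHA minus corn oil in WAT (left) and WAT minus BAT on the low-fat diet (right), with purple for an adjusted p under 0.05 and a line for the median. The medians on the left are 0.075, 0.054 and 0.34 from left to right, and on the right -0.43, -0.036 and -1.53.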

How the data were processed

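The values were deposited by the authors as log2 expression per probe, made with lumi 2.18.0, per the submitters' processing notes. The sorted values of any 2 arrays differ by at most 0.00694, as after quantile normalisation, so a change in total signal could not be seen. The normalisation step itself is not given in the sources used here. Whether the scale is plain log2 or a variance-stabilised one near log2 is not given in the sources used here, and differences near the floor may be understated. Of 45281 probes 34885 had 1 gene symbol, 18 had several and 10378 had none in the platform annotation used here, and 34818 matched a RefSeq gene. No probe with several symbols was named.

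The 67 probes of the 30 genes were reduced to the brightest per gene. Diets were compared within each tissue with limma 3.58.1 in R 4.3.3, over 12 arrays, 1 mean per diet, on the 27168 probes above the 40th percentile of mean expression (7.11 in each tissue). The tissue comparison and the interactions used the 29493 probes above the filter in BAT or WAT, on all 24 arrays, and treated BAT and WAT arrays as separate samples, since whether they share mice is not stated. Tests were two-sided, with Benjamini-Hochberg adjustment over all kept probes. The percentages of all genes are over brightest probes. Precision is limited by the number of arrays.

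The 30 genes, the other gene lists and the naming rule were chosen with earlier results of these data known. All 30 genes could be named, and values per array are given for those past the threshold between diets or in an interaction. They are also given for the 5 lowest differences between tissues and for Abcd2 and Scp2, which passed as higher in WAT. The naming rule had asked for the 5 largest differences each way. Values per array are also given for some others chosen after their values were seen. Of each other list up to 6 genes past the threshold were named, or up to 3 with the smallest p. Alternatives were other filters, median centring, another prior, array weights, the mean over probes, a replicate block, 1 fit over 24 arrays, liver or muscle scores as covariates, and arrays left out.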

Additional observations from a re-analysis of the deposited data

Results flagged for a closer look

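In 9 of 162 groups of 4 arrays, 1 array lay far from the other 3 by Dixon's test, which chance gives in about 1 of 20 groups. In WAT these were Scp2 on EPA/DHA (replicate 1 at 13.79, the others 13.32 to 13.40), Abcd2 on corn oil (replicate 4 at 10.51, the others 11.06 to 11.10), Pex16 on corn oil (replicate 4 at 9.95, the others 9.70 to 9.73) and Pex13 on low fat (replicate 4 at 8.48, the others 8.17 to 8.20). In BAT on EPA/DHA they were Pex7 (replicate 4 at 9.04, the others 8.66 to 8.71), Decr2 (replicate 2 at 7.87, the others 7.65 to 7.68) and Hsd17b4 (replicate 1 at 12.23, the others all at 12.42). In BAT on low fat, replicate 2, the array that stood apart from its tissue, was high for Pex11g (8.70, the others 8.22 to 8.30) and Acot8 (9.97, the others 9.31 to 9.40).

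The corn oil minus low-fat difference of Pex14 differed between the tissues by the interaction test, by 0.71 ± 0.15 (WAT minus BAT, limma adjusted p = 0.033).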

How the results depend on the processing

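Counts here are of the 30 genes past the limma threshold, and no alternative reversed a direction among called values. On corn oil against low fat in WAT the count was 3. It was 2 with no filter, the trended and robust prior, the mean over probes, the replicate block or the liver score as covariate. It was 1 in the fit over all 24 arrays and 2 in each fit without 1 array. On EPA/DHA against corn oil in WAT it was 2. It was 1 with no filter, 1 with the trended and robust prior, 1 with the replicate block, 1 with the liver score as covariate, 0 in the fit over all 24 arrays, 0 without the 2 WAT arrays highest in Ucp1, and 0 to 3 without 1 array. Arrays whose loss left 0 were EPA/DHA replicates 3 and 4 and each corn oil replicate. In BAT on corn oil against low fat it was 0, and 3 in the fit over all 24 arrays. In WAT against BAT on low fat it was 20, with 18 to 20 under the alternatives and 16 to 20 without 1 array. The interaction for corn oil against low fat gave 1, 0 without the 2 WAT arrays highest in Ucp1, and 0 to 1 without 1 array. The remaining comparisons gave 0 throughout, at 0 without 1 array as well.

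Cat passed on EPA/DHA against corn oil in WAT with the filter at the 60th percentile (adjusted p = 0.0469), with array weights (0.0499) and without EPA/DHA replicate 1 (0.019), and Pex3 (0.0229) and Pex11a (0.041) passed with the mean over probes. With that mean Scp2 and Pex19 did not pass. The cause of these changes was not tested. Replicate numbers were not taken to pair arrays, since deviations of same-number arrays correlated above 0.1 in only some pairs, 5 of 12 in BAT, 0 of 12 between tissues and 7 of 12 in WAT (median r 0.129, against 12 of 36 pairs and -0.083 for unlike numbers there). Of 12 WAT arrays 4 correlated best with their own number. With the replicate block Pex3 was lost on corn oil against low fat in WAT (adjusted p = 0.0661, count 2), Pex19 on EPA/DHA against corn oil (0.0924) and Pex11a between tissues (0.0637, count 19). With 4 arrays a group, small differences cannot be seen, and detection calls were not used.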
